A study of Oryza sativa with 4 samples.

Results

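Glutathione S-transferases (GSTs) were examined in the RNA bound to polysomes of rice (Oryza sativa) seedlings, as transcripts whose MSU v6.1 annotation text contains the words glutathione S-transferase and whose assembled structure matches the annotated transcript. This rule found 64 transcripts of 54 loci, among 57629 annotated and 89715 assembled transcripts in the table. The text of 9 of them reads only that the protein contains the N-terminal GST domain, 2 are annotated as GSTU6, 4 as GST 26, 1 as GSTF1 and 1 as microsomal GST 3. The other transcripts carry no name of a GST class. GST loci lay on all 12 chromosomes, with 17 on chromosome 1 and 14 on chromosome 10.

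There were 4 libraries, 1 for each condition: Pok given salt, Pok control, IR29 given salt and IR29 control. Pok (Pokkali) is a salt-tolerant rice and IR29 a salt-sensitive one. Whole seedlings about 24 days old were kept for 24 h with 150 mM NaCl in salt libraries, or stayed on Yoshida medium without added salt in control libraries. Polysomal fractions were collected from sucrose gradients and poly(A) RNA was taken from them, so that each value reflects mRNA loaded on ribosomes in roots and shoots together. Fewer cells of a type and less RNA per cell cannot be told apart in such material. The study pooled RNA of 3 biological replicates per treatment, which it states under total RNA isolation, so the 4 libraries hold no spread between replicates and a condition cannot be told apart from its library.

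GSTs join the tripeptide glutathione to electrophilic molecules such as herbicides and products of oxidative damage, and several of them also reduce peroxides with glutathione. Plants carry large GST families, in which the tau and phi classes (written GSTU and GSTF) are the largest, and many members lie side by side in tandem arrays. Conjugates made in the cytosol are moved to the vacuole by transporters of the multidrug resistance-associated protein (MRP) type. Plant GST genes are known for their response to herbicide safeners, pathogens, hormones and stresses that produce reactive oxygen.

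Levels are given in FPKM, fragments per kilobase of transcript scaled to the mapped reads of the library. At least 1 library reached 5 FPKM for 42 GST transcripts, each from a different locus, which is 65.6% of the 64 against 21.8% of all annotated transcripts. The other 22 stayed under 5 FPKM in all 4 libraries, with a highest value of 4.07 FPKM for Os01g27630.1, and 6 of them were listed at 0 in all 4. Summed over the 64 transcripts, the level was 1181 FPKM in Pok salt against 724 FPKM in Pok control, a ratio of 1.63, and 984 FPKM in IR29 salt against 662 FPKM in IR29 control, a ratio of 1.49. The sum over all rows was lower in Pok salt (1640970 FPKM) than in Pok control (1772430 FPKM). In IR29 it was 1910420 FPKM in salt against 917853 FPKM in control, a steeper rise than that of the GST sum. The number of GST transcripts at 5 FPKM or more was 41 in Pok salt, 26 in Pok control, 37 in IR29 salt and 29 in IR29 control. These numbers were not set against those of all annotated transcripts per library. Among the 42, the highest of the 4 values fell in Pok salt for 26, in IR29 salt for 10, in Pok control for 6 and in IR29 control for 0. For all annotated transcripts at that level Pok salt was highest for 32.7%, IR29 salt for 29.0%, Pok control for 30.4% and IR29 control for 7.97%.

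**Figure D1:**
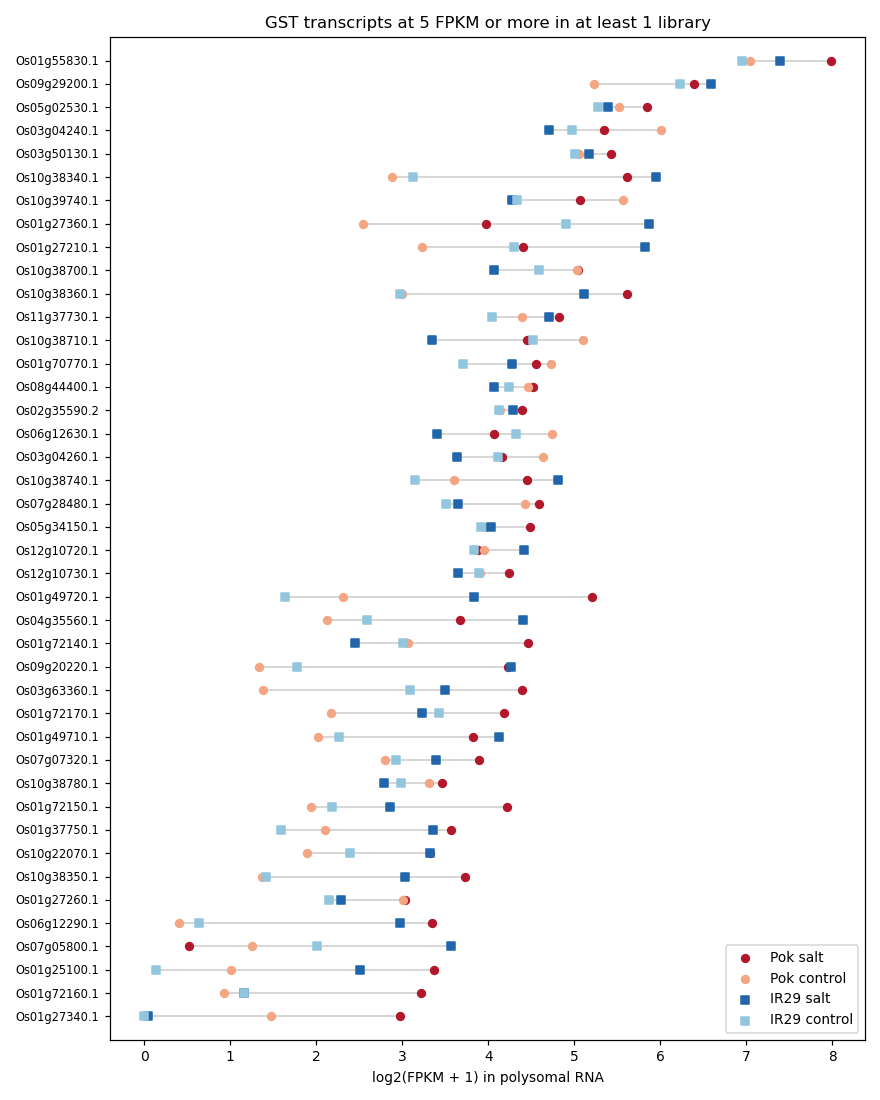
Levels of the 42 GST transcripts with 5 FPKM or more in at least 1 library, as log2(FPKM + 1) on the x axis, 1 row per transcript ordered by mean FPKM. Circles are Pok and squares IR29, with dark symbols for salt and pale symbols for control (1 library each), and a grey line spans the 4 values. Os01g55830.1 is at the top, and the widest gaps between dark and pale symbols are in the lower part of the plot.

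The libraries differed in scale and in tissue markers. The summed FPKM of all rows was 1640970 in Pok salt, 1772430 in Pok control, 1910420 in IR29 salt and 917853 in IR29 control, and for the 7424 annotated transcripts that reached 5 FPKM in every library the median log2 ratio was 0.06 for Pok salt over control and 0.26 for IR29 salt over control. The table gives no counts, so the number of reads behind each value cannot be given. Shoot markers (21 chlorophyll-binding and Rubisco small chain transcripts, 3 of them at 0 throughout) summed to 3717 FPKM in Pok salt against 6103 FPKM in Pok control, and to 1180 FPKM in IR29 salt against 4865 FPKM in IR29 control. Root markers (12 transporters and other root genes, 1 at 0 in IR29 salt) summed to 416 FPKM in Pok salt against 292 FPKM in Pok control, and to 134 FPKM in IR29 salt against 360 FPKM in IR29 control. Shoot and root markers thus both had lower sums in IR29 salt than in any other library, and their part in the GST values was not tested. The 7 dehydrins, proteins of the dehydration response, summed to 948 FPKM in Pok salt against 47.6 FPKM in Pok control, and to 325 FPKM in IR29 salt against 28.4 FPKM in IR29 control.

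The effect of salt was described first within each genotype by the size limits of the study, which ask for 5 FPKM in either library and a 2-fold difference, with no test. The study also required an FDR-corrected p under 0.05 and enough mapped reads. These were not applied here, so the calls follow a looser rule than those of the study. In Pok, 21 of 41 GST transcripts considered were higher in salt than in control and 0 were lower. Among all 11551 annotated transcripts considered, 15.7% were higher and 5.61% lower. In IR29, 13 of 38 GST transcripts were higher in salt and 1 was lower, where 19.1% of 11119 annotated transcripts were higher and 5.96% lower. A transcript that passed the 5 FPKM limit only through its salt library could be called higher in salt but not lower. This held for 15 of the 21 in Pok and 8 of the 13 in IR29. At 5 FPKM or more in both libraries of the pair, 6 of 26 GST transcripts were higher and 0 lower in Pok salt (6.82% and 2.17% of all annotated). In IR29 salt 5 of 28 were higher and 1 lower (10.2% and 3.23% of all annotated).

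The median log2 ratio of FPKM plus 1, over the 48 GST transcripts with a mean of at least 1 FPKM, was 1.02 in Pok against 0.08 over all annotated transcripts at that level, and 0.47 in IR29 against 0.22. Over all 64 GST transcripts it was 0.43 in Pok and 0.31 in IR29, with 0 in both genotypes for all annotated transcripts. Transcripts on either side of the 2-fold limit were close. Os09g29200.1 was just inside in Pok with 83.0 FPKM in salt and 36.6 FPKM in control, and Os01g55830.1 just outside with 252 FPKM in salt and 131 FPKM in control. In IR29, Os10g22070.1 was just inside with 8.97 FPKM in salt and 4.25 FPKM in control, while Os01g27360.1, with 57.6 FPKM in salt and 29.0 FPKM in control, was just outside at a ratio of 1.99.

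The salt ratio shared by both genotypes was then tested with limma on log2(FPKM + 1), with genotype as a term, on the 12578 annotated transcripts that reached 5 FPKM in at least 1 library. The genotypes stand in for replicates in this fit, so that a response that differs between them counts as error. It found 12 of the 42 GST transcripts higher in salt and 0 lower after Benjamini-Hochberg adjustment, where 7.36% of all annotated transcripts were higher and 1.05% lower. At an unadjusted p under 0.05, 19 GST transcripts were higher and 2 lower (18.7% and 5.72% of all annotated transcripts). A transcript under 5 FPKM in both controls entered the fit only through a salt library, and this held for 6 of the 12 (19.7% of all such annotated transcripts passed). They were Os01g37750.1, Os01g49710.1, Os01g49720.1, Os06g12290.1, Os09g20220.1 and Os10g38350.1. Of the 30 GST transcripts at 5 FPKM or more in at least 1 control library, 6 passed, where 5.09% of all annotated transcripts did. Without a filter on low values, or with any 1 of the 4 libraries left out (which also drops the term for genotype), 0 GST transcripts passed (and 0 of all annotated transcripts), with 11 to 15 higher at an unadjusted p under 0.05 (7.32% to 11% of all annotated transcripts). With upper-quartile scaling 7 passed (3.49% of all annotated transcripts).

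Among these were 3 neighbouring loci on chromosome 10, 1 of which had the lowest adjusted p of the family. Os10g38340.1, annotated as the tau-class enzyme GSTU6 (chromosome 10, 20417106 to 20418373, MSU v6.1), had 48.0 FPKM in Pok salt against 6.38 FPKM in Pok control, and 60.7 FPKM in IR29 salt against 7.72 FPKM in IR29 control. Its log2 change over both genotypes was 2.78 ± 0.23 (SE), with an adjusted p of 0.000908 (limma). Os10g38360.1 (assembled locus at 20426482 to 20546063) had 47.8 FPKM in Pok salt against 6.96 FPKM in Pok control, and 33.5 FPKM in IR29 salt against 6.87 FPKM in IR29 control, a change of 2.37 ± 0.25 with an adjusted p of 0.00164. Between them, Os10g38350.1 (20421811 to 20422818) was lower in level, with 12.2 FPKM in Pok salt against 1.57 FPKM in Pok control and 7.21 FPKM in IR29 salt against 1.66 FPKM in IR29 control. It passed with a change of 1.99 ± 0.39 and an adjusted p of 0.0183, though it entered the fit only through salt libraries. In each of the 3, both salt libraries stood above both control libraries, and the control levels of Pok and IR29 lay within a ratio of 0.83 to 1.01.

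The neighbouring pair Os01g49710 and Os01g49720 (1 assembled locus on chromosome 1, 28564900 to 28586204) also rose. Os01g49720.1 had 35.8 FPKM in Pok salt against 3.98 FPKM in Pok control, and 13.3 FPKM in IR29 salt against 2.11 FPKM in IR29 control, with a log2 change of 2.54 ± 0.28 and an adjusted p of 0.00185. Os01g49710.1 had 13.1 FPKM in Pok salt against 3.05 FPKM in Pok control, and 16.4 FPKM in IR29 salt against 3.82 FPKM in IR29 control (change 1.83 ± 0.26, adjusted p = 0.00613). The member of the pair with the higher level in salt was Os01g49720 in Pok and Os01g49710 in IR29. Both transcripts entered the fit only through salt libraries.

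The single loci Os09g20220, Os06g12290, Os04g35560 and Os01g37750 rose with them. Os09g20220.1 had 17.7 FPKM in Pok salt against 1.52 FPKM in Pok control, and 18.2 FPKM in IR29 salt against 2.41 FPKM in IR29 control, with a log2 change of 2.69 ± 0.29 and an adjusted p of 0.00169. Os06g12290.1, the other transcript annotated as GSTU6 (chromosome 6, 6611662 to 6612441), was near 0 in both controls: it had 9.15 FPKM in Pok salt against 0.326 FPKM in Pok control, and 6.88 FPKM in IR29 salt against 0.552 FPKM in IR29 control. Its change was 2.64 ± 0.58, with an adjusted p of 0.0290. Os04g35560.1 had 11.7 FPKM in Pok salt against 3.36 FPKM in Pok control, and 20.2 FPKM in IR29 salt against 5.03 FPKM in IR29 control (adjusted p = 0.00788). Os01g37750.1 had 10.8 FPKM in Pok salt against 3.31 FPKM in Pok control, and 9.29 FPKM in IR29 salt against 2.01 FPKM in IR29 control (adjusted p = 0.0183). For all 4, salt and control libraries did not overlap, as for 23 of the 42 GST transcripts with both salt values above both control values (36.1% of all annotated transcripts at that level). Os09g20220.1, Os06g12290.1 and Os01g37750.1 entered the fit only through salt libraries, so their separation was in part set by the filter.

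The remaining 3 that passed were Os01g27210.1 (adjusted p = 0.0132), Os01g27360.1 (adjusted p = 0.0230) and Os10g38740.1 (adjusted p = 0.0287). Os10g38740.1 had 20.8 FPKM in Pok salt against 11.2 FPKM in Pok control, a ratio under 2, and 27.0 FPKM in IR29 salt against 7.84 FPKM in IR29 control. Os01g25100.1 (chromosome 1, 14166223 to 14167511) missed the threshold with a log2 change of 2.37 ± 0.62 and an adjusted p of 0.0546. It had 9.34 FPKM in Pok salt against 1.01 FPKM in Pok control, and 4.69 FPKM in IR29 salt against 0.0951 FPKM in IR29 control, so that IR29 stayed under the 5 FPKM limit. The study named 10 GST loci from the same libraries, so their direction here is not independent evidence. They are the 3 on chromosome 10, the pair on chromosome 1, Os06g12290, Os01g25100, and Os01g72150, Os01g72160 and Os01g72170, which did not pass the test. The study lists Os01g49710, Os10g38350, Os01g25100 and the last 3 as upregulated only in Pok, by criteria that include an FDR. By the size limits here, Os01g49710.1 and Os10g38350.1 were called higher in salt in both genotypes. The others of that list were called in Pok and not in IR29.

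**Figure D2:**
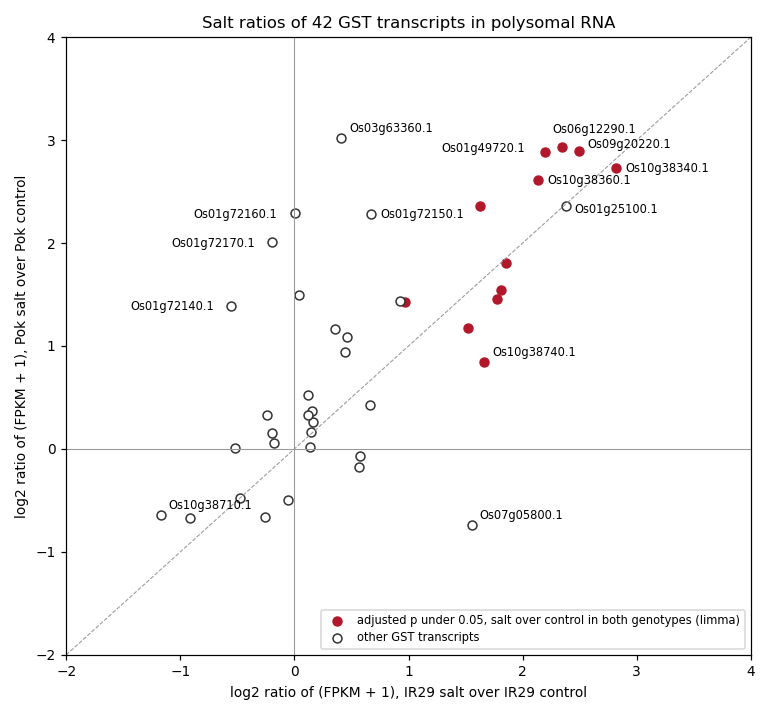
Salt over control log2 ratio of FPKM plus 1 in Pok (y axis) against IR29 (x axis) for the 42 GST transcripts, 1 library per condition. Filled points are the 12 transcripts that limma called higher in salt over both genotypes, open points the other 30, and the dashed line marks equal ratios. The filled points lie in the upper right, and 4 labelled loci of chromosome 1 (Os01g72140 to Os01g72170) lie high on the Pok axis and near 0 on the IR29 axis.

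The salt calls of Pok and IR29, which share no library, overlapped. As a part of the Pok calls the overlap was near that of all annotated transcripts, and as a part of the IR29 calls it was larger. Of the transcripts called higher in salt, 11 were called in both genotypes, which is 52.4% of the 21 in Pok and 84.6% of the 13 in IR29. For all annotated transcripts, the 906 called in both were 49.9% of those in Pok and 42.7% of those in IR29. Across the 42 GST transcripts the salt log2 ratios of the genotypes had a Pearson r of 0.67 and a Spearman rho of 0.64, against 0.46 and 0.51 across all 12578. These correlations are across transcripts, which are not independent replicates. Both ratios were above 0 for 28 of the 42 and both below 0 for 5, which was not counted over all annotated transcripts. The ratio was larger in Pok for 27 of the 42 (37.7% of all annotated transcripts).

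On chromosome 1, a row of 4 neighbouring loci, Os01g72140 to Os01g72170 (41842853 to 41853927), was called in Pok and not in IR29. Os01g72140.1 had 21.0 FPKM in Pok salt against 7.39 FPKM in Pok control, and 4.46 FPKM in IR29 salt against 7.02 FPKM in IR29 control. Os01g72150.1 had 17.7 FPKM in Pok salt against 2.83 FPKM in Pok control, and 6.25 FPKM in IR29 salt against 3.55 FPKM in IR29 control. Os01g72160.1 had 8.28 FPKM in Pok salt against 0.896 FPKM in Pok control, and 1.24 FPKM in both IR29 libraries. It was thus under the 5 FPKM limit in IR29 and could not be called there. In each of these 3, Pok salt was the highest library and at least 2-fold above each of the other 3.

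Os01g72170.1 had 17.1 FPKM in Pok salt against 3.50 FPKM in Pok control, and 8.38 FPKM in IR29 salt against 9.77 FPKM in IR29 control, so that its control level was higher in IR29. All 4 were called higher in Pok salt than in Pok control, with log2 ratios of 1.39 to 2.29. In IR29 0 of 4 were called, with log2 ratios of -0.56 to 0.67, though Os01g72160.1 was not considered there. All 4 were also higher in Pok salt than in IR29 salt by at least 2-fold, though Os01g72170.1, at a ratio of 2.04, fell under that limit when libraries were centred on their median ratio. In the limma fit over both genotypes the lowest adjusted p of the row was 0.0618, for Os01g72150.1. With 4 libraries in 4 groups the difference between genotypes could not be tested.

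The salt log2 ratio was larger in Pok than in IR29 by at least 1 for 6 of 42 GST transcripts and smaller by at least 1 for 1, where 7.89% and 7.93% of all annotated transcripts did so. The 6 were the row of 4 loci, Os03g63360.1 and Os01g27340.1. Os01g72160.1 of the row and Os01g27340.1 reached 5 FPKM only in Pok salt, so their larger ratio in Pok was in part set by the filter. The 1 in the other direction was Os07g05800.1, which holds the N-terminal GST domain. Os07g05800.1 had 0.432 FPKM in Pok salt against 1.39 FPKM in Pok control, and 10.8 FPKM in IR29 salt against 3.01 FPKM in IR29 control. It was called higher in IR29 salt and stayed under 5 FPKM in Pok. Os07g05800.1 reached that level only in IR29 salt, so its direction was likewise in part set by the filter. Os07g07320.1, with 13.8 FPKM in Pok salt against 5.98 FPKM in Pok control and 9.46 FPKM in IR29 salt against 6.58 FPKM in IR29 control, was called in Pok and not in IR29, but with upper-quartile scaling its Pok log2 ratio of 0.88 was under the limit, as was the 0.94 of Os09g29200.1.

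**Figure D3:**
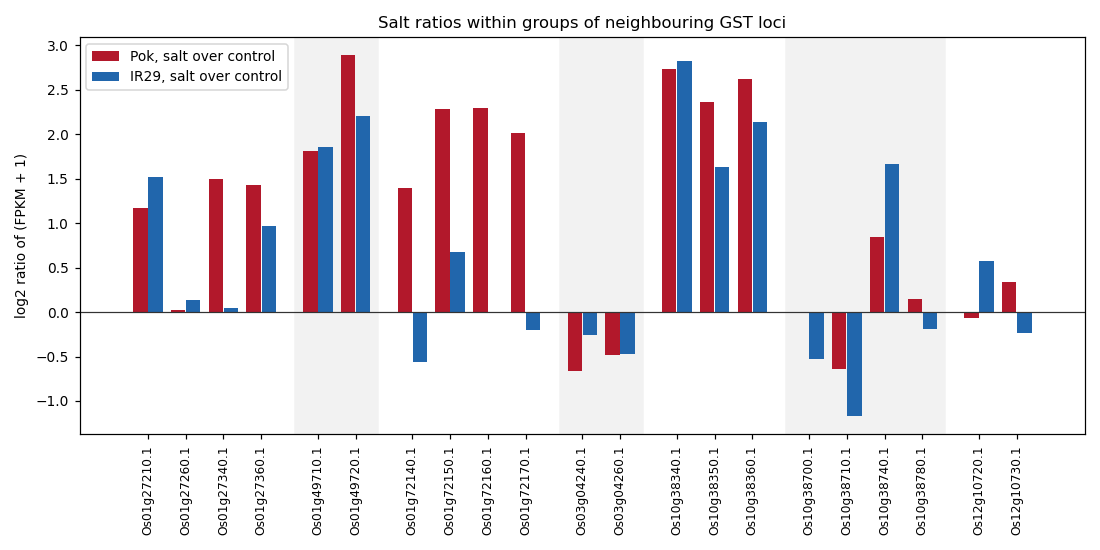
Salt over control log2 ratio of FPKM plus 1 (y axis) for GST transcripts of 7 groups of neighbouring loci, in Pok (left bar) and IR29 (right bar), for members at 5 FPKM or more in at least 1 library; shading separates the groups. The bars of Os10g38340 to Os10g38360 are high in both genotypes, those of Os01g72140 to Os01g72170 are high in Pok and between -0.56 and 0.67 in IR29.

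Neighbouring loci did not always move together. GST loci whose MSU locus numbers were at most 100 apart formed 7 groups with 24 of the 54 loci. In the group Os10g38630 to Os10g38780, which follows Os10g38340 to Os10g38360 on chromosome 10, 0 of 4 transcripts at 5 FPKM were called in Pok. In IR29, Os10g38740.1 was called higher and Os10g38710.1 lower. Os10g38710.1 had 20.9 FPKM in Pok salt against 33.2 FPKM in Pok control, and 9.20 FPKM in IR29 salt against 22.0 FPKM in IR29 control. Its log2 change over both genotypes, -0.91 ± 0.25, had an adjusted p of 0.0649. Os10g38700.1 beside it had 31.9 FPKM in Pok salt against 31.7 FPKM in Pok control, and 15.7 FPKM in IR29 salt against 23.1 FPKM in IR29 control.

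Few GST transcripts had lower values in salt in both genotypes. Os06g12630.1 had 15.8 FPKM in Pok salt against 25.7 FPKM in Pok control, and 9.57 FPKM in IR29 salt against 19.0 FPKM in IR29 control, and did not pass the test (change -0.80 ± 0.24, adjusted p = 0.0827). Os03g04240.1 had 39.7 FPKM in Pok salt against 63.3 FPKM in Pok control, and 25.2 FPKM in IR29 salt against 30.3 FPKM in IR29 control, which was not called in either genotype. Both salt values lay below both control values for 2 of the 42 GST transcripts, where 11.8% of all annotated transcripts at that level did so.

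Abundant GST transcripts included several that were not called. Os01g55830.1 (chromosome 1, 32129542 to 32151507) was the highest in every library, with 252 FPKM in Pok salt, 131 FPKM in Pok control, 168 FPKM in IR29 salt and 123 FPKM in IR29 control. It held 21.3% of the summed GST level in Pok salt, 18.1% in Pok control, 17.0% in IR29 salt and 18.5% in IR29 control. Os05g02530.1, which holds the N-terminal GST domain, had 56.6 FPKM in Pok salt against 45.0 FPKM in Pok control, and 40.9 FPKM in IR29 salt against 37.6 FPKM in IR29 control. Os03g50130.1, the microsomal GST, belongs to a membrane protein family unrelated in fold to the soluble enzymes. It had 41.9 FPKM in Pok salt against 32.2 FPKM in Pok control, and 34.9 FPKM in IR29 salt against 31.2 FPKM in IR29 control.

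The genotypes were next compared under each treatment. In control seedlings, 4 GST transcripts of 30 considered were higher and 5 lower in Pok than in IR29, where 11% and 6.62% of all annotated transcripts were. This split moved with scaling: centred on the median ratio it was 0 higher and 5 lower, with upper-quartile scaling 1 higher and 5 lower, and the median log2 ratio of 0.04 turned to -0.24 and -0.10. The 4 were Os01g27260.1, Os01g70770.1, Os03g04240.1 and Os10g39740.1, with ratios of 2.05 to 2.40. The 5 lower in Pok were Os01g27210.1, Os01g27360.1, Os01g72170.1, Os03g63360.1 and Os09g29200.1. In salt, 8 of 42 were higher and 3 lower in Pok than in IR29 (9.87% and 6.76% of all annotated transcripts). Centring left 6 higher and 3 lower. At 5 FPKM or more in both salt libraries, 5 of 36 were higher and 2 lower. Of 9218 annotated transcripts at that level, 493 were higher and 211 lower. At 5 FPKM or more in both control libraries, 3 of 25 were higher and 2 lower. There, 451 of 8097 annotated transcripts were higher and 167 lower. The control and salt comparisons each share libraries with the salt ratios above.

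The group Os01g27210 to Os01g27360, which contains the locus annotated as the phi-class GSTF1 (Os01g27300.1, at 0 in all 4 libraries), held both GST transcripts that differed between genotypes by the limma test. Os01g27360.1 had 14.8 FPKM in Pok salt and 57.6 FPKM in IR29 salt, and 4.85 FPKM in Pok control and 29.0 FPKM in IR29 control. Over both treatments its log2 difference, Pok over IR29, was -2.13 ± 0.25, with an adjusted p of 0.00484 (limma). Os01g27210.1 had 20.1 FPKM in Pok salt and 55.7 FPKM in IR29 salt, and 8.38 FPKM in Pok control and 18.7 FPKM in IR29 control, a difference of -1.25 ± 0.24 with an adjusted p of 0.0466. These 2 were lower in Pok (0.811% of all annotated transcripts were), and 0 GST transcripts were higher after adjustment (0.962% of all annotated transcripts were), with 4 lower and 9 higher at an unadjusted p under 0.05 (4.91% and 12.5% of all annotated transcripts). The call of 2 was not stable: other pseudocounts, a minimum of 1 FPKM or upper-quartile scaling left 1, and no filter, no term for treatment or any library left out left 0.

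Within the same group, Os01g27340.1 had the opposite order. It had 6.82 FPKM in Pok salt and 0.0305 FPKM in IR29 salt, and 1.77 FPKM in Pok control, and was listed at 0 in IR29 control. Os01g27260.1 had 7.18 FPKM in Pok salt and 3.88 FPKM in IR29 salt, and 7.05 FPKM in Pok control and 3.44 FPKM in IR29 control. Tandem copies of GST genes can be nearly identical, and reads of 50 to 51 bases that fit several copies, or that carry differences between a genotype and the reference genome, may be counted to the wrong copy. The values of single copies in these groups are uncertain for that reason, and sums over neighbours were not tested.

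GST loci also gave 39 assembled transcripts of other classes, of which 35 were splice variants that share a junction with the annotated transcript. Of these, 20 splice variants of 15 loci reached 5 FPKM. Of 16 considered in Pok, 3 were higher and 1 lower in salt, where 14.4% and 11.7% of all splice variants were. Of 16 in IR29, 4 were higher and 2 lower, where 24.5% and 9.28% of all splice variants were. At Os01g55830 the splice variant had 34.6 FPKM in Pok salt against 96.3 FPKM in Pok control, and 85.5 FPKM in IR29 salt against 103 FPKM in IR29 control. Its share of the locus was 12.1% in Pok salt against 42.4% in Pok control, and 33.8% in IR29 salt against 45.7% in IR29 control. The sum of both forms was 287 FPKM in Pok salt against 227 FPKM in Pok control, and 253 FPKM in IR29 salt against 226 FPKM in IR29 control. The forms of this locus thus had opposite directions in salt while their sum differed less.

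At Os03g63360 (chromosome 3, 35782916 to 35823081) the share of splice variants was also lower in salt. The annotated transcript had 20.1 FPKM in Pok salt against 1.60 FPKM in Pok control, the widest ratio among transcripts called in Pok and not in IR29, and 10.3 FPKM in IR29 salt against 7.48 FPKM in IR29 control. Splice variants made up 62.3% of the locus in Pok salt against 96.5% in Pok control, and 74.5% in IR29 salt against 87.9% in IR29 control. Summed over the forms, the locus had 53.2 FPKM in Pok salt against 46.1 FPKM in Pok control, and 40.4 FPKM in IR29 salt against 62.1 FPKM in IR29 control, and it was no longer called. The call of Os04g35560.1 in Pok was also lost on summing, at a log2 ratio of 0.83, and Os01g27360.1 in IR29 became called, at 1.23.

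At Os09g29200 both forms kept their shares. The splice variants were 55.3% of the locus in Pok salt, 52.1% in Pok control, 54.3% in IR29 salt and 55.8% in IR29 control, and the sum was 186 FPKM in Pok salt against 76.4 FPKM in Pok control, and 208 FPKM in IR29 salt against 167 FPKM in IR29 control. Pok control was thus the low library at this locus, for both forms. One splice variant of the microsomal GST Os03g50130 had 17.0 FPKM in Pok salt and 10.5 FPKM in Pok control, and was listed at 0 in both IR29 libraries. How Cufflinks divided reads among forms cannot be checked without counts.

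**Figure D4:**
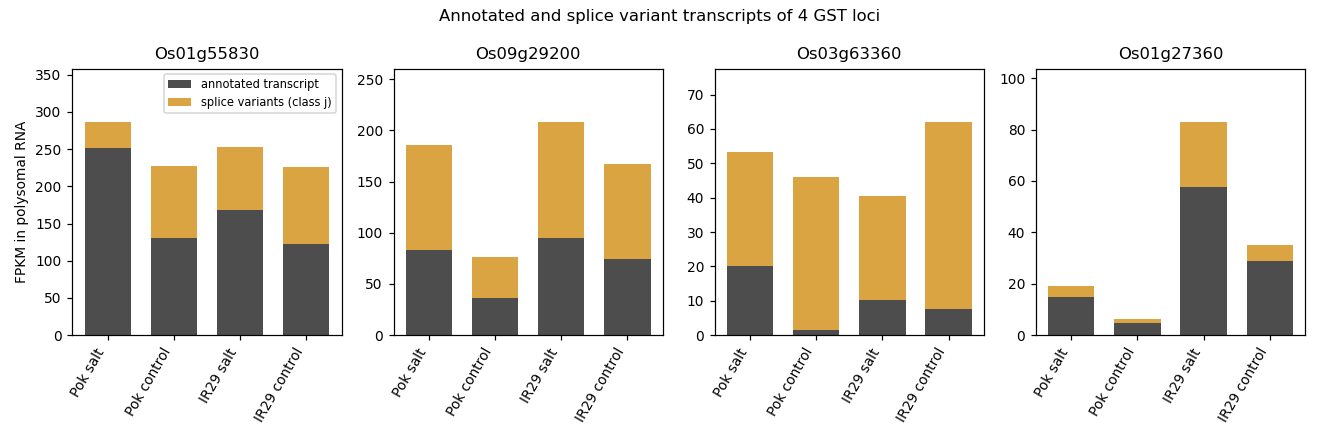
FPKM (y axis, own scale in each panel) of the annotated transcript (dark) and of splice variants (yellow, stacked) of 4 GST loci in the 4 libraries. The yellow share is smallest in Pok salt at Os01g55830 (12.1%) and at Os03g63360 (62.3%), and is 52.1% to 55.8% in all libraries at Os09g29200.

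Other genes of glutathione metabolism were counted by lists made from annotation words, to be read against the 15.7% higher and 5.61% lower of all annotated transcripts considered in Pok, and the 19.1% and 5.96% in IR29. For the supply of glutathione, 3 of 5 transcripts of its synthesis were considered, with 0 called in Pok salt and 1 higher in IR29 salt. That was Os05g03820.1, glutamate-cysteine ligase, which makes the first bond of glutathione, with 18.1 FPKM in Pok salt against 17.1 FPKM in Pok control, and 17.7 FPKM in IR29 salt against 6.85 FPKM in IR29 control. Another annotated transcript of this locus, Os05g03820.2, was not called, with 11.8 FPKM in IR29 salt against 10.1 FPKM in IR29 control. Of 35 transcripts of sulfate assimilation and cysteine synthesis, which supply its sulfur, 16 were considered in Pok with 1 higher and 1 lower, and 18 in IR29 with 1 higher and 2 lower.

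Of 4 glutathione reductase transcripts, whose enzyme returns oxidised glutathione to its reduced form, 2 were considered in each genotype, with 0 called in Pok and 1 higher in IR29. Os02g56850.4 had 37.5 FPKM in Pok salt against 21.5 FPKM in Pok control, and 49.3 FPKM in IR29 salt against 20.8 FPKM in IR29 control. Of 7 glutathione peroxidase transcripts 4 were considered in each genotype, with 1 higher in Pok salt and 0 called in IR29. Os04g46960.2 had 156 FPKM in Pok salt against 75.6 FPKM in Pok control, and 152 FPKM in IR29 salt against 114 FPKM in IR29 control. Among 17 transcripts of dehydroascorbate and monodehydroascorbate reductases, of which 10 carry the text of a bifunctional nectarin-3 precursor, 2 of 9 considered were higher in Pok salt and 2 of 10 in IR29 salt. Os08g44340.1, a monodehydroascorbate reductase that regenerates ascorbate, had 47.3 FPKM in Pok salt against 15.6 FPKM in Pok control, and 60.0 FPKM in IR29 salt against 16.9 FPKM in IR29 control.

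Of 6 MRP transcripts, 2 of 4 considered were higher in Pok salt and 3 of 4 in IR29 salt, and 0 were lower. Os04g13210.1 had 5.46 FPKM in Pok salt against 1.56 FPKM in Pok control, and 14.2 FPKM in IR29 salt against 2.73 FPKM in IR29 control, and Os04g49890.1 had 8.44 FPKM in Pok salt against 3.99 FPKM in Pok control, and 8.87 FPKM in IR29 salt against 3.63 FPKM in IR29 control. Glyoxalases, which detoxify methylglyoxal with glutathione, had 21 transcripts, 9 of them considered in each genotype, with 3 higher and 1 lower in Pok salt, and 2 higher and 2 lower in IR29 salt. Os04g45590.1 among them had 14.8 FPKM in Pok salt against 0.560 FPKM in Pok control, and 13.1 FPKM in IR29 salt against 1.59 FPKM in IR29 control. The largest log2 ratio of the list was that of Os07g06660.1, called lower in IR29 salt. It had 107.5 FPKM in IR29 control and was listed at 0 in IR29 salt and both Pok libraries. Of 56 glutaredoxins, small proteins that reduce disulfides with glutathione, 1 was higher and 3 lower of 24 considered in Pok, and 2 were higher and 0 lower of 19 considered in IR29. Of 3 gamma-glutamyltransferases, which break glutathione down, Os01g05810.1 was considered in Pok and was higher in salt, with 8.66 FPKM against 3.98 FPKM in Pok control, and Os04g38450.1 was considered in IR29 and was not called.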

How the data were processed

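Per the paper's methods, the authors filtered reads of 50 to 51 bases on quality, aligned them with TopHat to MSU v6.1, assembled and merged transcripts with Cufflinks and Cuffmerge, classed them with Cuffcompare and compared libraries with Cuffdiff; versions are not given in the sources used here. The deposited FPKM per assembled transcript were used; total RNA libraries were not analysed here. Positions are those of assembled loci, which may hold several genes, with 1 added to starts.

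Ratios were computed in Python 3.11.15 (pandas 2.3.3) and tests in R 4.3.3 with limma 3.58.1 (lmFit, eBayes with trend, pseudocount 1, Benjamini-Hochberg adjustment at 0.05, 1 residual degree of freedom per transcript, with the variance moderated across transcripts). Steps were tested on simulated data. Named transcripts were the 10 most abundant, those called in a salt comparison (up to 30), up to 8 called between genotypes, the 10 loci the study names and up to 3 per other list; Os06g12630.1, Os01g27300.1, Os01g27630.1 and those of opposite sign were added after their values were seen. Members and lists were chosen with earlier results of these data known. Alternatives were other minimums, folds, pseudocounts, scalings, filters, fits without a library, and summed forms. Protein and promoter sequences were not used here.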

Additional observations from a re-analysis of the deposited data

Results flagged for a closer look

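For 9 GST transcripts the salt log2 ratio had opposite signs in Pok and IR29, which was not counted over all annotated transcripts. Some of these ratios lay near 0, as for Os08g44400.1 with 0.06 in Pok and -0.18 in IR29. The difference between genotypes was not tested. Pok minus IR29, it was 2.21 for Os01g72170.1, 1.95 for Os01g72140.1 and -2.30 for Os07g05800.1, which were each called in one genotype. It was smaller for Os01g70770.1 (-0.74), Os12g10720.1 (-0.64), Os12g10730.1 (0.57), Os10g38700.1 (0.53), Os10g38780.1 (0.35) and Os08g44400.1 (0.23), none of them called in a salt comparison.

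Signal also appeared in assembled transcripts outside the comparisons. A transcript at Os01g70770 with an intron on the opposite strand had 73.4 FPKM in Pok salt against 61.5 FPKM in Pok control, and 55.2 FPKM in IR29 salt against 7.81 FPKM in IR29 control. A transcript antisense to Os01g72160 had 3.78 FPKM in Pok salt and was listed at 0 in Pok control, and had 2.00 FPKM in IR29 salt against 0.697 FPKM in IR29 control. The sources used here do not say whether libraries kept strand, and without it reads of this transcript and of Os01g72160.1 cannot be told apart.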

How the results depend on the processing

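Each condition had 1 library, so there were no replicates to pair. The limma fit with genotype as a term already compares salt with control within each genotype. With 1 library per condition and no counts, neither replicate spread nor counting error is known. Of 1150 log2 ratios of single named GST transcripts under alternatives, 1077 kept their side of the limit and 0 called ratios changed sign. The 1077 include ratios called neither in the main setting nor in the alternative. Other minimums, other fold limits and leaving out values of 0 keep the same ratio, so its sign could not change there. Nor could it on summing annotated transcripts at a locus with only 1. Of 72 medians of the other 9 glutathione lists under the 2 scalings, 19 changed sign.

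Size calls moved as follows, with the main counts 21 higher and 0 lower in Pok salt, 13 and 1 in IR29 salt, 4 and 5 in Pok control over IR29 control, and 8 and 3 in Pok salt over IR29 salt. A minimum of 1 FPKM gave 1 lower in Pok salt, 3 lower in IR29 salt, 7 higher and 9 lower between controls, and 2 with the smaller salt ratio in Pok. A minimum of 10 FPKM gave 3 lower between controls. A 4-fold limit gave 12 higher in Pok salt, 0 lower in IR29 salt, 0 higher and 2 lower between controls, 3 higher and 1 lower between salt libraries, and 3 with the larger salt ratio in Pok. Centring gave 2 lower in IR29 salt and 0 higher between controls, and upper-quartile scaling 2 and 1. Over the other glutathione lists together, Pok salt had 11 higher and 5 lower; centring gave 2 lower, and upper-quartile scaling 6 higher and 10 lower.

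The median GST log2 ratio in Pok was 1.19 with a pseudocount of 0.1, 0.57 with 5, 0.43 with no minimum, 0.84 with a minimum mean of 5 FPKM, 0.86 centred, 0.87 with upper-quartile scaling and 0.83 with annotated and splice variant forms summed, a setting chosen after seeing the data. In IR29 it was 0.33 with a pseudocount of 5, 0.31 with no minimum, 0.28 centred and 0.24 with upper-quartile scaling. Between controls it was -0.24 centred and -0.10 with upper-quartile scaling, and between salt libraries 0.21 with no minimum and 0.32 centred. Pok minus IR29 (0.30) was 0.40 with a pseudocount of 0.1, 0.19 with 5, 0.073 with no minimum and 0.44 centred.

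In the limma fit, 12 GST transcripts were higher in salt and 2 lower in Pok. Pseudocounts of 0.1 and 5, a minimum of 1 FPKM and upper-quartile scaling each left 1 lower in Pok, and the last 7 higher in salt. No filter left 0 and 0 (15 higher in salt at an unadjusted p under 0.05). Without a term for the other factor 3 were higher in salt and 0 lower in Pok. With 1 library left out, which also drops that term and assumes that the lone sample varies like the others, 0 to 0 were higher in salt, 0 to 0 lower in Pok and 0 to 1 higher in Pok, the 1 without Pok control.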
